A study of Mus musculus with 10 samples.

Results

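The polyamine genes described here are the enzymes that make putrescine, spermidine and spermine, the enzymes that acetylate and oxidise them, and the antizymes and antizyme inhibitor that set the level of the first enzyme. They were chosen by symbol, as the rows named ODC1, AMD1, SRM, SMS, SAT1, SMOX, PAOX, OAZ1, OAZ2 and AZIN1, and all 10 of 10 were found in both deposited tables, among 24016 usable gene rows. RNA was sequenced from 10 libraries of mouse prostate cancer organoids, which are 3-dimensional cultures of prostate epithelium. The donors were C57BL/6 mice, 8 weeks old, the tissue was the prostate's dorsal-lateral lobe, and the mice overexpressed cMYC and carried floxed Ezh2 alleles and an inducible PSA-CreERT2. All organoids were grown in medium with 10 nM R1881, a synthetic androgen. In the chemical experiment, 3 libraries given 1 µM DZNep, used in the series as an inhibitor of the histone methyltransferase EZH2, were set against 3 given DMSO. In the genetic experiment, 2 libraries given 1 µM Tamoxifen, which activates the recombinase, were set against 2 given EtOH, and RNA was taken 3 days after treatment in both.

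CreERT2 under a PSA promoter acts only in cells in which that promoter is active, and the share of cells that recombined was not analysed here. The controls also carry the cMYC construct, the floxed alleles and the recombinase, so every comparison is within that background. Since the labels do not tell whether replicates are separate cultures or animals, p-values reflect the spread between libraries alone, and that spread may be technical.

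Ornithine decarboxylase makes putrescine from ornithine, and S-adenosylmethionine decarboxylase supplies the aminopropyl groups that spermidine synthase and spermine synthase add to it in turn. Spermidine/spermine acetyltransferase and 2 oxidases run the chain backwards, while antizymes, whose translation depends on polyamines, bind ornithine decarboxylase and send it to the proteasome. The prostate is known for unusually high polyamine synthesis, and ODC1 is a textbook target of MYC. DZNep blocks S-adenosylhomocysteine hydrolase, and S-adenosylmethionine is the substrate of both methyltransferases and the AMD1 enzyme.

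Levels are given as RPKM, reads per kilobase of transcript scaled to the mapped reads of the library, recovered from the deposited log2(RPKM + 1) values, so they are per length. Changes are differences of log2(RPKM + 1), which understate the change of genes near 0. They were tested with limma's moderated test, two-sided, over all genes that averaged 1 RPKM or more, and an adjusted p under 0.05 (Benjamini-Hochberg over all genes tested) is called a rise or a fall. In bulk RNA, fewer cells of a type and less RNA per cell cannot be told apart.

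The promoters of the 3 genes called in the chemical experiment are shown because the cMYC construct is shared by all the mice, and MYC binds the motif CACGTG. The windows are the 250 bases before the start site in RefSeq's GRCm38.p6 annotation, a different build from the mm9 of the deposited tables. They lie at chr12:17544623-17544872 (plus strand) for ODC1, chrX:155216450-155216699 (minus strand) for SAT1 and chr9:65676298-65676547 (plus strand) for OAZ2. The annotated gene of ODC1 begins at chr12:17544808, before the start site used for its window, so the end of that window lies within the gene. Capitals mark CACGCG on either strand, which reads CGCGTG on the other.
ODC1: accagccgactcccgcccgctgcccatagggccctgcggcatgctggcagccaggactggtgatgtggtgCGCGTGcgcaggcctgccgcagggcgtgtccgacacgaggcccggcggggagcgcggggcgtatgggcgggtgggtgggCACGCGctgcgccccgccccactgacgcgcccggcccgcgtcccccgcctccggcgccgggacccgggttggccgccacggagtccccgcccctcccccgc
SAT1: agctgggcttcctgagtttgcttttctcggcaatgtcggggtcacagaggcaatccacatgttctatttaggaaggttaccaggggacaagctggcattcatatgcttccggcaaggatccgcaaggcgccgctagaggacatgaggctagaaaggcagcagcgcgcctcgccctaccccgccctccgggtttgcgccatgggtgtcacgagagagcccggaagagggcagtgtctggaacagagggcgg
OAZ2: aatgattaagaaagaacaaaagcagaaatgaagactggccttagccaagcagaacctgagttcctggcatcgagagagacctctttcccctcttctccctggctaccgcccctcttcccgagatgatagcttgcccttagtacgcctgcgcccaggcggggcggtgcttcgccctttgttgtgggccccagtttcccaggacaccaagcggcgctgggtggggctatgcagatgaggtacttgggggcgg
None of these windows holds CACGTG. Sequence outside the windows, introns included, was not searched, so these genes may hold CACGTG elsewhere. That motif, which reads the same on both strands, was found in the members' windows only at -196 in 1 of 2 SMS windows, and 6.02% of all 32851 windows of the table hold it. The variant CACGCG, searched on both strands after the sequences had been seen, does not overlap CACGTG and stood in 7.62% of windows. Positions are those of a motif's first base, counted back from the start site. ODC1 held it at -180 and -101, OAZ1 at -212 and the other SMS window at -140. RefSeq windows were matched for 8 of the 10 genes, and SRM and AZIN1 were not among them. A match is a description of letters, not of binding.

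In vehicle-treated organoids the row of the acetyltransferase gene was the highest of the 10. SAT1 averaged 420 ± 8.62 RPKM in DMSO libraries (SD, n = 3), place 171 by level among 11143 genes tested. OAZ1, the main antizyme gene, averaged 66.8 ± 5.41 RPKM and PAOX, the peroxisomal oxidase of acetylated polyamines, 60.2 ± 1.16 RPKM, and the library ranges of OAZ1 and PAOX overlapped. SMOX, the spermine oxidase, followed at 38.7 ± 1.32 RPKM, ODC1 at 26.4 ± 3.54 RPKM and OAZ2, a second antizyme gene, at 20.4 ± 0.837 RPKM, each with a library range apart from its neighbours'. SRM, the spermidine synthase, at 16.0 ± 2.56 RPKM and AZIN1, the antizyme inhibitor, at 15.8 ± 0.336 RPKM had overlapping ranges. SMS, the spermine synthase, was lower at 9.60 ± 0.912 RPKM. The EtOH libraries of the other table gave the same order, except that AZIN1 came before SRM with overlapping ranges and that OAZ1 stood apart from PAOX.

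The AMD1 row was nearly empty, at 0.0188 to 0.0198 RPKM in DMSO libraries, while AMD2, a near-identical copy, carried 112 ± 1.45 RPKM (SD, n = 3). In the GENCODE transcripts, 86.1% of the 50-base words of AMD1 also occur in AMD2, so reads of these 2 genes cannot be told apart with confidence. AMD1 made up at most 0.0200% of the summed AMD1 and AMD2 level in 9 of the 10 libraries and 3.57% in Tamoxifen 1, where its own level was 4.11 RPKM. OAZ1 shares 52.2% of its 50-base words with the processed pseudogene row OAZ1-PS, which held 71.7% to 81.5% of the summed level of both rows. That sum averaged 316 ± 16.5 RPKM in DMSO libraries (SD, n = 3), below SAT1. ODC1 shares 42.2% of its words with 16 other genes, at most 20.3% with any single gene, whereas SAT1 shares 7.28% and OAZ2 12%. The sources used here do not give how reads matching several places were counted, so AMD1, AMD2 and OAZ1 are reported as uncertain. The same limit applies to ODC1, to PAOX, which shares 28.9% of its words, most of them with GM19680, and to SMS, which shares 28.7%, most of them with SMS-PS.

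**Figure D1:**
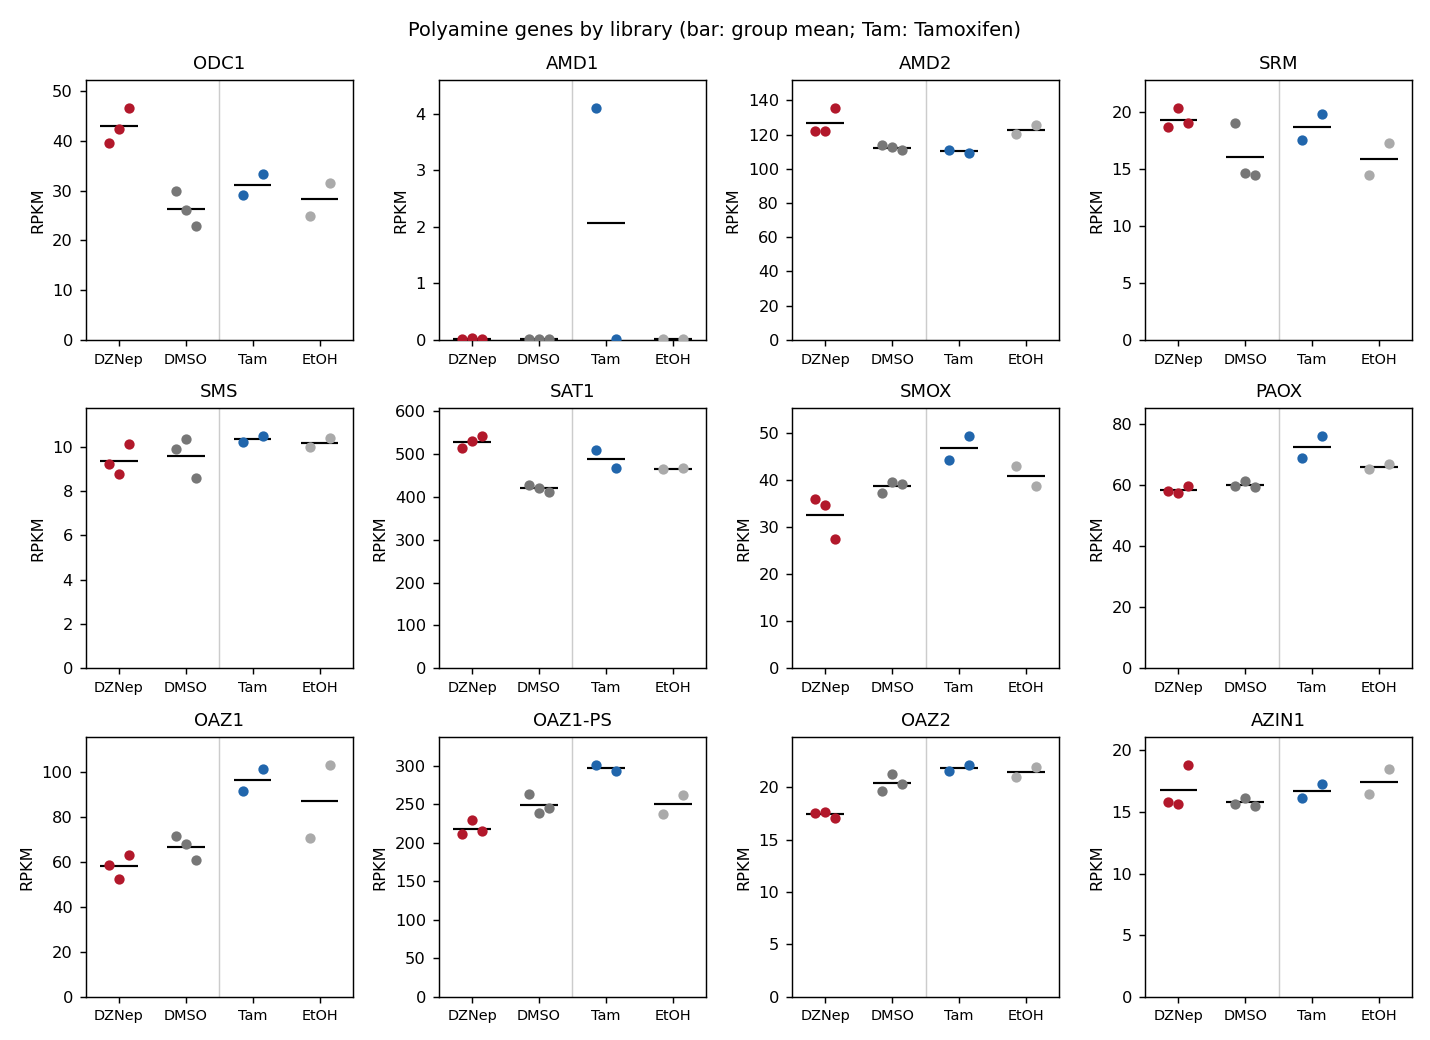
RPKM (y axis, from 0) of the 10 polyamine genes and of the look-alike rows AMD2 and OAZ1-PS, 1 point per library, with bars at group means. The 3 DZNep libraries of ODC1 sit at 39.7 to 46.7 RPKM, above all 3 DMSO libraries at 23.0 to 30.02 RPKM, and AMD1 is near 0 in every library except Tamoxifen 1.

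With DZNep, the gene of the first synthetic enzyme and that of the acetyltransferase were higher than with DMSO, and an antizyme gene was lower. Of the 9 polyamine genes that passed the level filter (AMD1 did not), 2 rose (ODC1 and SAT1), 1 fell (OAZ2) and 6 did not pass the test. Over all genes, 27.7% passed, 16.6% as rises and 11.1% as falls, so a count of 3 of 9 is near the background. The median change of the 9 genes was -0.03, against 0.01 over all genes tested.

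ODC1, the first enzyme of synthesis, had 39.7, 42.4 and 46.7 RPKM in DZNep libraries, against 30.02, 26.2 and 23.0 RPKM in DMSO libraries. The groups did not overlap, and the lowest DZNep library was above the highest DMSO library. The mean was 1.63-fold higher, at 42.9 ± 3.56 RPKM with DZNep and 26.4 ± 3.54 RPKM with DMSO (SD, n = 3 each). On the log2 scale ODC1 rose by 0.69 (SE 0.0990, 95% interval 0.46 to 0.92, limma adjusted p = 0.00260).

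SAT1, which acetylates spermidine and spermine and so starts their breakdown and export, had 513, 530 and 542 RPKM in DZNep libraries, against 428, 420 and 411 RPKM in DMSO libraries. All DZNep libraries were above all DMSO libraries, and the spread within either group was small next to the gap. The mean was 1.26-fold higher, and the log2 rise was 0.33 (SE 0.0499, 95% interval 0.22 to 0.45, limma adjusted p = 0.00323). SAT1 made up most of the 10 genes' summed RPKM, and the 10 genes together made up 0.161% to 0.164% of summed RPKM in DZNep libraries and 0.135% to 0.140% in DMSO libraries.

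OAZ2 had 17.6, 17.6 and 17.1 RPKM in DZNep libraries, against 19.6, 21.3 and 20.3 RPKM in DMSO libraries. Every DZNep library was below every DMSO library, and the log2 change was -0.22 (SE 0.0477, 95% interval -0.33 to -0.11, limma adjusted p = 0.0142). This call ended when DMSO 2 was left out (-0.19, adjusted p = 0.0734).

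Both amino-propyl transfer enzymes missed the threshold. SRM had 18.6, 20.4 and 19.0 RPKM in DZNep libraries, against 19.0, 14.6 and 14.5 RPKM in DMSO libraries, so DMSO 1 lay within the DZNep range and the other DMSO libraries below it. The log2 difference was 0.26 (SE 0.0986, limma adjusted p = 0.0800), and without DMSO 1 it was 0.39 with an adjusted p of 0.00378. SMS had 9.21, 8.75 and 10.1 RPKM in DZNep libraries and 9.88, 10.3 and 8.58 RPKM in DMSO libraries. Its groups overlapped, with a log2 difference of -0.03 (95% interval -0.21 to 0.15, limma adjusted p = 0.796).

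For the decarboxylase that supplies their aminopropyl groups, AMD2 had 122, 122 and 136 RPKM in DZNep libraries, against 114, 113 and 111 RPKM in DMSO libraries. These groups did not overlap, and the log2 difference of 0.17 (SE 0.0558) was just outside the threshold (limma adjusted p = 0.0542). AMD1 itself had 0.0199 to 0.0244 RPKM in DZNep libraries and 0.0188 to 0.0198 RPKM in DMSO libraries.

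The 2 oxidases, which turn acetylated polyamines or spermine back towards putrescine with hydrogen peroxide as a by-product, were not called. SMOX had 35.9, 34.6 and 27.4 RPKM in DZNep libraries, against 37.2, 39.7 and 39.2 RPKM in DMSO libraries. All DZNep libraries were below all DMSO libraries, but DZNep 3 lay well below the other two, and the log2 difference of -0.25 (SE 0.0960) had a limma adjusted p of 0.0894. PAOX had 58.0, 57.4 and 59.8 RPKM in DZNep libraries and 59.8, 61.5 and 59.2 RPKM in DMSO libraries, an overlap, with a log2 difference of -0.04 (95% interval -0.15 to 0.06, limma adjusted p = 0.494).

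Of the other regulators, OAZ1 had 58.8, 52.2 and 63.0 RPKM in DZNep libraries and 71.6, 67.7 and 60.9 RPKM in DMSO libraries, with DZNep 3 above DMSO 3. Its log2 difference was -0.20 (SE 0.0843, limma adjusted p = 0.110). OAZ1 and OAZ1-PS summed, an alternative added after the values were seen, averaged 276 ± 6.24 RPKM with DZNep and 316 ± 16.5 RPKM with DMSO (SD, n = 3 each). That sum differed by -0.19 on the log2 scale with a limma adjusted p of 0.0375, so the OAZ1 call depends on which row the reads are given to. AZIN1, which resembles ornithine decarboxylase and draws antizyme away from it, had 15.8, 15.6 and 18.8 RPKM in DZNep libraries and 15.6, 16.1 and 15.5 RPKM in DMSO libraries. It overlapped (log2 difference 0.08, limma adjusted p = 0.447).

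Counting separation alone, 3 of the 10 genes were higher in every DZNep library than in any DMSO library (ODC1, SAT1 and AMD1), 2 were lower in every one (SMOX and OAZ2) and 5 overlapped. AMD1, at 0.0199 to 0.0244 RPKM with DZNep and 0.0188 to 0.0198 RPKM with DMSO, is too near 0 to be read as a change. Over all genes tested, which leave out AMD1, 26.1% were separated upwards, 19.4% downwards and 45.5% either way. The count of 5 of 10, which includes AMD1, is close to that background. An exact two-sided permutation test of 3 against 3 libraries cannot go below p = 0.1, and ODC1, SAT1, SMOX, OAZ2 and AMD2 each stood at that limit.

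Other measures moved with the DZNep results. Summed RPKM of 6 squamous markers was 282 to 326 in DZNep libraries, against 148 to 166 in DMSO libraries. For 7 epithelial markers it was 5025 to 5154 in DZNep libraries, against 3649 to 3799 in DMSO libraries. The epithelial gap lay mostly in KRT5 and KRT14, with means of 2752 and 1418 RPKM with DZNep and 2061 and 786 RPKM with DMSO. KRT8 also rose, and EPCAM, CDH1, KRT18 and TRP63 were not called. The squamous gap lay mostly in KRT13 and KRT10, with means of 175 and 40.4 RPKM with DZNep and 60.9 and 12.7 RPKM with DMSO. IVL, the largest part of the DMSO sum, averaged 78.1 RPKM with DZNep and 79.0 RPKM with DMSO (log2 difference -0.01). LOR fell by 0.33 (limma adjusted p = 0.0156). In the genetic experiment squamous markers summed to 70.7 to 86.2 RPKM in Tamoxifen libraries, against 131 to 155 RPKM in EtOH libraries. The 6 fibroblast and smooth muscle markers summed to 8.61 to 9.76 RPKM in DZNep libraries, against 3.42 to 4.61 RPKM in DMSO libraries, with COL1A2 at 0 in all of these. That sum was nearly all DCN and ACTA2, and VIM, COL1A1 and PDGFRB averaged at most 0.393 RPKM in both groups, with lower means with DZNep. The 6 prostate markers summed to 265 to 282 RPKM in DZNep libraries, against 260 to 269 RPKM in DMSO libraries, with PBSN, a defining gene of mouse prostate secretion, at 0 in every library. The 6 immune markers summed to 16.2 to 18.0 RPKM in DZNep libraries, against 13.5 to 16.9 RPKM in DMSO libraries, and the 4 endothelial ones summed to at most 0.464 RPKM with CDH5 at 0. The part of these marker differences in the polyamine results was not tested.

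**Figure D2:**
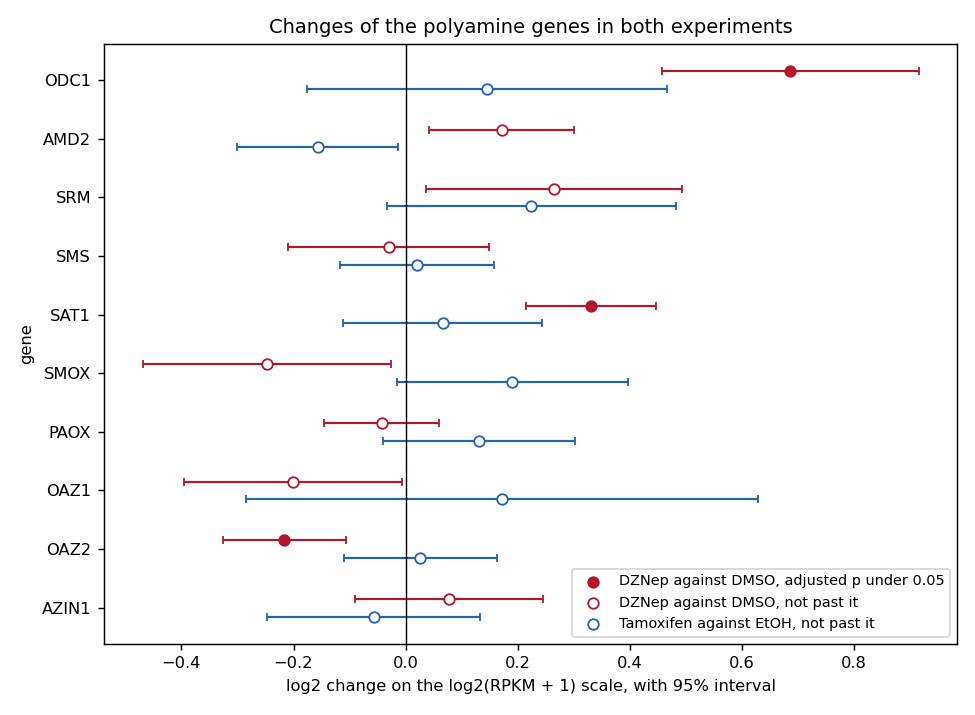
Difference of means on the log2(RPKM + 1) scale (x axis) with its 95% interval for each polyamine gene and AMD2 (y axis), DZNep against DMSO in red above Tamoxifen against EtOH in blue. Filled points had a limma adjusted p under 0.05 and are ODC1 (0.69), SAT1 (0.33) and OAZ2 (-0.22), all with DZNep. AMD1, near 0 in 9 of 10 libraries, is not drawn.

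The balance of ODC1 to its antizymes was described within each library, where any library-wide scale cancels. OAZ1 is here its own row alone, without OAZ1-PS, which held 71.7% to 81.5% of the summed level of both rows. The counting of reads that match several places is unknown for OAZ1 and ODC1, so the size of these ratios is uncertain. ODC1 per OAZ1 was 0.675, 0.812 and 0.741 in DZNep libraries, against 0.419, 0.386 and 0.377 in DMSO libraries. ODC1 per OAZ2 was 2.26, 2.40 and 2.74 in DZNep libraries, against 1.53, 1.23 and 1.13 in DMSO libraries. Neither ratio overlapped between the groups. For ODC1 per OAZ2 this had to be so, because both genes were already separated in opposite directions. ODC1 as a percentage of SAT1 was 7.73%, 8.00% and 8.62% in DZNep libraries, against 7.01%, 6.23% and 5.58% in DMSO libraries. In the genetic experiment, ODC1 per OAZ1 was 0.319 and 0.329 in Tamoxifen libraries, against 0.354 and 0.307 in EtOH libraries, which overlap. ODC1 per OAZ2 also overlapped there, at 1.35 and 1.501 in Tamoxifen libraries, against 1.18 and 1.44 in EtOH libraries. These ratios of RNA were not tested further, and the share of other gene pairs that separate was not computed. Antizyme is controlled mainly at translation, which was not measured here.

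**Figure D3:**
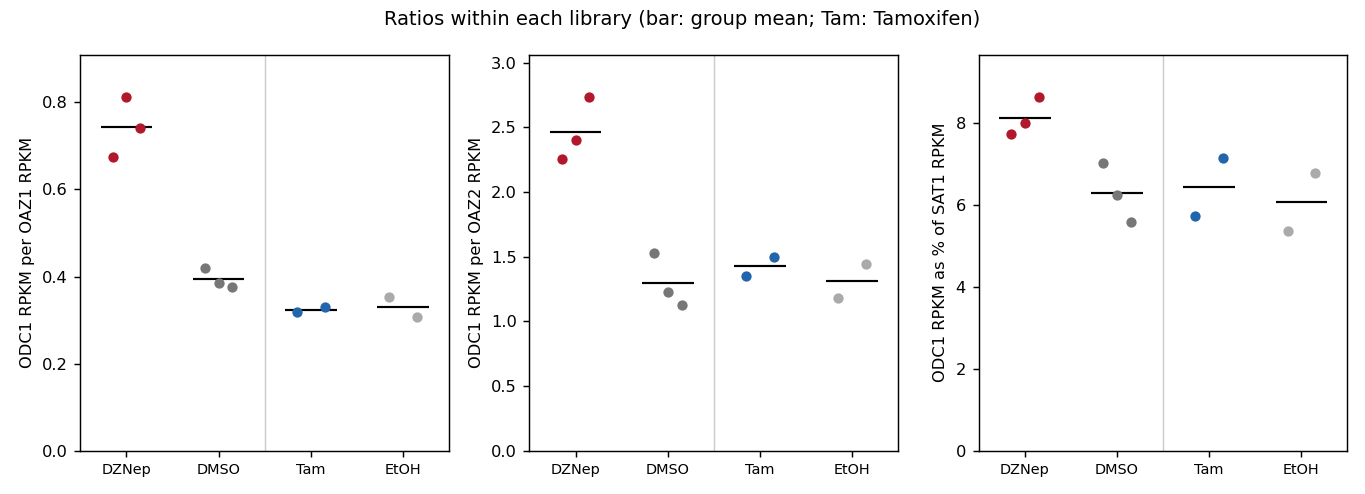
ODC1 RPKM divided by OAZ1 RPKM, by OAZ2 RPKM, and as a percentage of SAT1 RPKM (y axes, from 0) in each library, with bars at group means. DZNep libraries lie above DMSO libraries in all 3 panels (0.743 against 0.394 on average for ODC1 per OAZ1), and Tamoxifen and EtOH libraries overlap in every panel. OAZ1 is its own row alone, without OAZ1-PS, so the size of that ratio is uncertain.

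Tamoxifen left the polyamine genes without a call. None of the 10 genes passed the test, and none had an unadjusted p under 0.05 by limma, where 2.07% of all 11123 genes tested were called (0.692% as rises and 1.38% as falls) and 2831 had an unadjusted p under 0.05. All 10 entered because AMD1 passed the level filter through Tamoxifen 1 alone (4.11 RPKM, against 0.0177 RPKM in Tamoxifen 2 and 0.0212 and 0.0168 RPKM in EtOH libraries). The median change was 0.14, against 0.04 over all genes. ODC1 had 29.2 and 33.3 RPKM in Tamoxifen libraries and 24.9 and 31.6 RPKM in EtOH libraries (log2 difference 0.14, 95% interval -0.18 to 0.47, limma adjusted p = 0.492). SAT1 had 509 and 467 RPKM in Tamoxifen libraries and 464 and 468 RPKM in EtOH libraries (0.07, 95% interval -0.11 to 0.24, limma adjusted p = 0.572). OAZ2 had 21.6 and 22.2 RPKM in Tamoxifen libraries and 21.0 and 21.9 RPKM in EtOH libraries (0.03, 95% interval -0.11 to 0.16, limma adjusted p = 0.778). For all 3 genes the groups overlapped.

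SRM, SMOX and PAOX were higher in both Tamoxifen libraries than in either EtOH library, and the other 7 genes overlapped. Of all genes tested, 36.6% were separated upwards, 23.2% downwards and 59.9% either way. SRM had 17.5 and 19.9 RPKM in Tamoxifen libraries, against 14.5 and 17.2 RPKM in EtOH libraries. SMOX had 44.3 and 49.3 RPKM in Tamoxifen libraries, against 42.9 and 38.8 RPKM in EtOH libraries. PAOX had 69.0 and 76.0 RPKM in Tamoxifen libraries, against 65.2 and 66.9 RPKM in EtOH libraries. Their log2 differences of 0.22, 0.19 and 0.13 had limma adjusted p of 0.238, 0.219 and 0.282, and an exact two-sided permutation test of 2 against 2 cannot go below p = 0.333. OAZ1 had 91.5 and 101 RPKM in Tamoxifen libraries and 70.4 and 103 RPKM in EtOH libraries, so the EtOH libraries spanned both Tamoxifen libraries. Its log2 difference was 0.17 (limma adjusted p = 0.567), and it was 0.44 (adjusted p = 0.0441) without EtOH 2 and -0.10 without EtOH 1. With 1 EtOH library left, these fits assume that it varies like the Tamoxifen libraries. OAZ1 and OAZ1-PS summed had 393 and 395 RPKM in Tamoxifen libraries, against 308 and 365 RPKM in EtOH libraries. That sum was thus higher in both Tamoxifen libraries, but it was not called by limma either. SMS and AZIN1 differed by 0.02 and -0.06 with overlapping groups.

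The 2 experiments were compared by testing the difference of their effects in a joint limma fit of all 10 libraries. SAT1 changed by 0.26 more with DZNep than with Tamoxifen (SE 0.0808, adjusted p = 0.0439), and OAZ2 had a difference of -0.24 (SE 0.0709, adjusted p = 0.0371). These are 2 of 9 genes, where 19.9% of all 10994 genes tested passed, 10.7% upwards and 9.2% downwards. ODC1 showed a larger difference with a wider error that missed the threshold, 0.54 (SE 0.176, 95% interval 0.15 to 0.93, adjusted p = 0.0540). SMOX, below DMSO in the DZNep libraries and above EtOH in the Tamoxifen libraries, differed by -0.44 (SE 0.146, adjusted p = 0.0595). OAZ1 differed by -0.37 (adjusted p = 0.209). Most of these results depended on single libraries. For SAT1 the adjusted p was over 0.05 when any 1 was left out of DZNep 2, DZNep 3, DMSO 2, DMSO 3, Tamoxifen 1, Tamoxifen 2, EtOH 1 or EtOH 2, in a range of 0.0507 to 0.200. For OAZ2 it was over 0.05 when any 1 was left out of DZNep 1, DZNep 2, DZNep 3, DMSO 2, DMSO 3, Tamoxifen 1, Tamoxifen 2 or EtOH 1, in a range of 0.0521 to 0.141. ODC1 passed without DZNep 1 (0.0495), without DMSO 1 (0.0240) or without EtOH 1 (0.0333). SMOX passed without DZNep 1 (0.0342), and OAZ1 without EtOH 2 (-0.65, adjusted p = 0.0198).

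Around the pathway, 32 further genes were listed by role, of which 25 passed the level filter. With DZNep 9 of the 25 rose, 2 fell and 14 did not pass, where 16.6% of all genes tested rose and 11.1% fell. The median change was 0.12, against 0.01 over all genes. The counts by role that follow are small and are read against the same shares. With Tamoxifen 0 of the 25 passed the limma test, where 2.07% of all 11123 genes tested did. An unadjusted p under 0.05 by limma was found for 7 of the 25 and for 2831 of the 11123, so the 7 are not read as a result. Leaving out 1 library moved the DZNep count to 4 rises and 1 fall without DMSO 2, and to 5 rises and 1 fall without DZNep 2 or without DMSO 3. ARG1, ASS1, ASL, MRI1 and ATP13A3, described next, kept their calls in all 6 such fits, ATP13A2 lost its call only without DMSO 2 (adjusted p = 0.0503), and SLC18B1 lost it in 3 of 6 and APIP, ADI1, DHPS and SLC3A2 in 4 of 6.

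Of 9 measured genes that supply arginine, ornithine and methionine, 3 rose and 0 fell, where 27.7% of all genes were called either way. ARG1, an arginase that makes ornithine from arginine, had 3.06, 3.32 and 3.62 RPKM in DZNep libraries, against 0.976, 1.01 and 1.52 RPKM in DMSO libraries. It was low in both groups but 2.85-fold higher on average with DZNep, and it rose by 1.00 on the log2 scale (SE 0.106, limma adjusted p = 6.82e-04). ASS1 and ASL, which make arginine from citrulline and aspartate in turn, rose by 0.50 and 0.29 (adjusted p = 0.00779 and 0.00306). ASL had 28.0 to 29.4 RPKM in DZNep libraries, against 23.1 to 23.5 RPKM in DMSO libraries. ARG2, OAT, ALDH18A1, SLC7A1, MAT2A and MAT2B did not pass.

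Of 6 genes that recycle methylthioadenosine, the by-product of both aminopropyl transfers, to methionine, 3 rose and 0 fell, against 16.6% and 11.1% of all genes. MRI1, the isomerase, had 13.01, 13.7 and 14.7 RPKM in DZNep libraries, against 11.02, 10.3 and 9.66 RPKM in DMSO libraries, a log2 rise of 0.39 (limma adjusted p = 0.00476). APIP, the dehydratase, and ADI1, the dioxygenase, rose by 0.28 and 0.19 (adjusted p = 0.0283 and 0.0217). MTAP, the phosphorylase that opens this route, did not pass, nor did ENOPH1 (-0.19) and GOT1 (0.23).

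Hypusine is an amino acid built from spermidine on the translation factor EIF5A. DHPS, which starts its synthesis, rose by 0.19 (limma adjusted p = 0.0264), and DOHH and EIF5A did not pass. EIF5A was the most abundant of these 3, at 578 ± 13.3 RPKM with DZNep and 554 ± 54.1 RPKM with DMSO (SD, n = 3 each).

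Of 5 measured transport genes 2 rose and 2 fell, against 16.6% and 11.1% of all genes. ATP13A2, a lysosomal polyamine exporter, had 6.51 to 7.93 RPKM in DZNep libraries, against 5.07 to 5.61 RPKM in DMSO libraries (0.32, limma adjusted p = 0.0177). SLC3A2, the heavy chain of several amino acid transporters, rose by 0.23 (adjusted p = 0.0330). ATP13A3, a related transporter, had 14.2 to 16.9 RPKM in DZNep libraries, against 19.0 to 20.6 RPKM in DMSO libraries (-0.34, limma adjusted p = 0.00930). SLC18B1, a vesicular polyamine transporter, fell by 0.28 (adjusted p = 0.0212), at 2.88 to 3.51 RPKM in DZNep libraries, against 4.17 to 4.29 RPKM in DMSO libraries. AMD2 and AZIN2, the 2 relatives that passed the filter, were not called. AZIN2, listed under its older symbol ADC, had 1.15 ± 0.0346 RPKM with DZNep and 1.19 ± 0.0690 RPKM with DMSO (SD, n = 3 each).

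**Figure D4:**
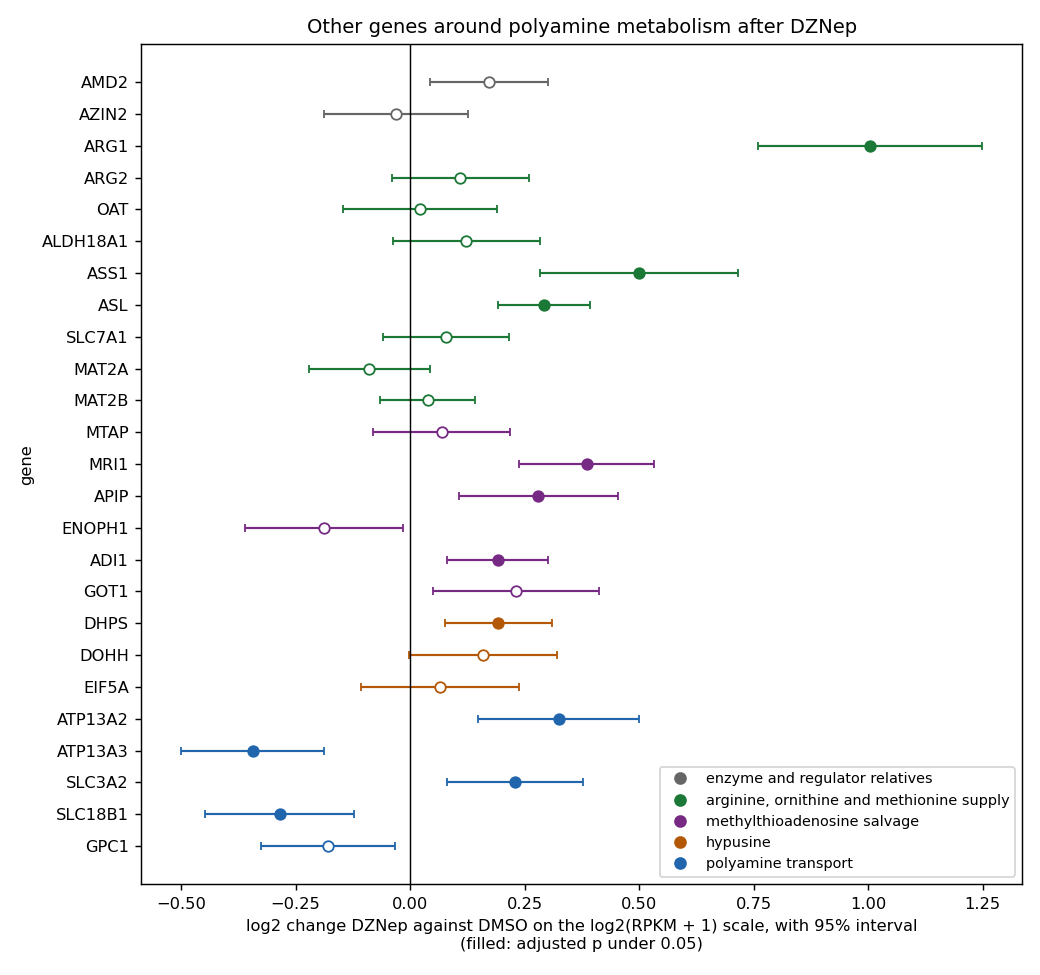
Difference of means, DZNep against DMSO, on the log2(RPKM + 1) scale (x axis) with its 95% interval for the 25 other genes tested (y axis), coloured by role, with filled points at a limma adjusted p under 0.05. ARG1 at 1.00 lies furthest from 0, and among transport genes ATP13A2 and SLC3A2 lie above 0 while ATP13A3 and SLC18B1 lie below it.

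In the test of the difference of effects, 5 of these 25 genes passed, a share near the 19.9% of all genes that did. ARG1 (0.55, limma adjusted p = 0.0357), ASS1 (0.48, adjusted p = 0.0400), ADI1 (0.33, adjusted p = 0.0117) and AMD2 (0.33, adjusted p = 0.0197) changed more upwards with DZNep than with Tamoxifen. GPC1, a heparan sulfate proteoglycan linked to polyamine uptake, differed by -0.34 (adjusted p = 0.0276). Without Tamoxifen 1 none of these 5 genes passed (adjusted p of 0.0516 to 0.123), and without Tamoxifen 2 ADI1 was the only 1 of the 5 that did. ARG1 also missed the threshold without EtOH 1, DZNep 2, DZNep 3, DMSO 1 or DMSO 2, in a range of 0.0560 to 0.120. ASS1 missed it without EtOH 2, DZNep 1, DZNep 2, DMSO 2 or DMSO 3, in a range of 0.0559 to 0.120. GPC1 missed it without EtOH 1, EtOH 2, DZNep 2 or DMSO 2, in a range of 0.0553 to 0.0734, and AMD2 without EtOH 2 (0.0542). AMD2 had 111 and 109 RPKM in Tamoxifen libraries, against 120 and 126 RPKM in EtOH libraries (-0.16, limma adjusted p = 0.172). Both Tamoxifen libraries held ARG1 above both EtOH libraries too, at 2.02 and 1.77 RPKM in Tamoxifen libraries, against 1.23 and 0.997 RPKM in EtOH libraries (0.46, limma adjusted p = 0.0860).

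MYC, the driver of these mice, had 69.5 ± 4.02 RPKM with DZNep and 53.4 ± 2.06 RPKM with DMSO (SD, n = 3 each), a log2 rise of 0.37 (SE 0.0581, limma adjusted p = 0.00375). With Tamoxifen it had 53.0 ± 4.56 RPKM, against 48.7 ± 5.29 RPKM with EtOH (SD, n = 2 each, log2 difference 0.12, limma adjusted p = 0.466). The tables do not separate the transgene from the mouse gene. EZH2 had 23.8 ± 1.19 RPKM with DZNep and 29.1 ± 1.78 RPKM with DMSO (SD, n = 3 each, limma adjusted p = 0.0142, and 0.0641 without DMSO 2). With Tamoxifen it had 32.6 ± 0.822 RPKM, against 31.0 ± 4.25 RPKM with EtOH (SD, n = 2 each, limma adjusted p = 0.635). A value for the whole gene does not measure the floxed exons alone, so it does not check recombination.

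Genes whose pattern across libraries was most like that of ODC1 were found by Pearson's r over the 10 libraries, after centring log2(RPKM + 1) within each experiment, among 10994 genes. They were RPL7L1 (r = 0.994), SDHA (0.993), PSPC1 (0.992) and MRPS34 (0.991). For SAT1 they were TMED4 (0.986), ATRAID (0.984), DCN (0.983), ZFP874B (0.979) and ACOT8 (0.979). DCN is also 1 of the 6 fibroblast and smooth muscle markers. Among the polyamine genes, ODC1 had r = 0.89 with SAT1, 0.84 with SRM and -0.82 with OAZ2, and 0.74 with MYC. These are descriptions over libraries that share a treatment and a table, and the 6 chemical libraries fall into their 2 treatment groups for ODC1 and SAT1.

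Depth in reads is unknown, since only normalized values were deposited. From the smallest steps of low genes, depth relative to DMSO 1 ran from 0.755 in DZNep 2 to 1.16 in DMSO 3, although that ratio fitted only 19.5% to 24.0% of low genes.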

How the data were processed

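RNA-seq values of 10 libraries in 2 experiments were used. Per the labels' protocols, RNA was extracted with TRIzol and libraries were made with the Illumina TruSeq Stranded mRNA kit from 500 ng of RNA. Per the submitters' processing notes, bcl2fastq 2.18, STAR, Cufflinks and build mm9 were used, with no version recorded for STAR or Cufflinks. The authors deposited 2 tables of log2 values, log2(RPKM + 1) per gene, 1 per experiment. Not given in the sources used here are any joint normalization of the tables and the handling of strand and of reads with several alignments. Of 24043 rows in the genetic table, 27 with symbols turned into dates were left out.

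RPKM was computed by raising 2 to the deposited value and subtracting 1. Genes that averaged 1 RPKM or more were tested with limma 3.58.1 in R 4.3.3 (mean trend, two-sided, Benjamini-Hochberg over all genes, threshold 0.05), each experiment alone, and the difference of effects in a fit of 4 group means over 10 libraries. Counts could not be recovered, so no count model was used. The filter left 11143 genes for DZNep, 11123 for Tamoxifen and 10994 for the difference. The procedure was tested on simulated data. Shared 50-base words were counted in GENCODE M21 transcripts, and promoter windows came from RefSeq, GRCm38.p6. The members, gene lists and tests were chosen with earlier results of these data known. Named genes were all polyamine genes, every listed pathway gene past the threshold, MYC and EZH2, and the 5 genes most like ODC1 and the 5 most like SAT1, of which 1 is not reported here. The figures used Python 3.11.15 with matplotlib 3.10.9.

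The alternatives changed the pseudocount to 0.1, dropped the filter or set it to 5 RPKM, scaled libraries by quantiles or by a trimmed mean, dropped the trend, used robust variances, added a replicate block, fitted both experiments jointly, or left out each library in turn. Summing AMD1 with AMD2 and OAZ1 with OAZ1-PS, searching CACGCG, and recomputing the other pathway genes under every alternative were added after the data were seen.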

Additional observations from a re-analysis of the deposited data

Results flagged for a closer look

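2 polyamine genes responded differently to the 2 treatments by the test of the difference itself, 2 of the 9 tested, where 19.9% of all 10994 genes tested passed. SAT1 changed by 0.26 more on the log2 scale with DZNep against DMSO than with Tamoxifen against EtOH (SE 0.0808, limma adjusted p = 0.0439). It was higher in 3 of 3 DZNep libraries than in any DMSO library, and the Tamoxifen and EtOH libraries overlapped. OAZ2 had a difference of -0.24 (SE 0.0709, limma adjusted p = 0.0371), lower in 3 of 3 DZNep libraries than in any DMSO library, with an overlap between Tamoxifen and EtOH libraries. Each call was lost in 8 of the 10 fits that left out 1 library. Groups of 2 and 3 libraries were too small for a test of single outlying libraries.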

How the results depend on the processing

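ODC1 and SAT1 kept their rise with DZNep under all 15 alternatives, with log2 changes of 0.59 to 0.78 for ODC1 (highest adjusted p 0.0191) and 0.31 to 0.35 for SAT1 (highest 0.0372). No called result changed sign. Results that did were all uncalled. Leaving out 1 library, these ran from -0.077 to 0.16 for the difference of SRM, -0.10 to 0.020 for SMS and -0.0048 to 0.12 for AZIN1 with DZNep, and, with Tamoxifen, -0.10 to 0.44 for OAZ1, -0.022 to 0.31 for ODC1, -0.14 to 0.023 for AZIN1, -0.0048 to 0.047 for SMS and -0.0025 to 0.056 for OAZ2. With Tamoxifen, SMS and OAZ2 were also at -0.012 and -0.0049 under quantile normalization and at -0.0083 and -0.0041 under trimmed mean scaling. The fall of OAZ2 held in 13 of 15, and the count of polyamine genes lower with DZNep was 2 with quantile normalization, which adds OAZ1 (-0.24, adjusted p = 0.0428), and 0 to 1 over fits leaving out 1 library. The count of polyamine genes in the difference of effects, 2 in the reported fit, was 1 with no filter, 4 with robust variances, adding ODC1 (adjusted p = 0.0377) and SMOX (0.0382), 3 with quantile normalization or trimmed mean scaling, which add ODC1, and 0 to 3 leaving out 1 library. With Tamoxifen, 0 to 1 polyamine genes were higher leaving out 1 library, which were OAZ1 without EtOH 2 and AMD1 without Tamoxifen 2. Both fits leave an arm of 1 library, assumed to vary like the other group, and AMD1 passed the level filter through Tamoxifen 1 alone, so neither is read as a change. For the sum of OAZ1 and OAZ1-PS the difference of effects was -0.42 (adjusted p = 0.0208). SRM and AMD2 passed with DZNep under robust variances (adjusted p = 0.0499 and 0.0495), and AMD2 also in the joint fit (0.0282). Of the other pathway genes, leaving out 1 library gave 4 to 11 higher and 1 to 3 lower with DZNep, 0 to 2 higher and 0 to 1 lower with Tamoxifen, and 1 to 4 higher and 0 to 1 lower in the difference. A filter of 5 RPKM left 1 lower with DZNep. Robust variances gave 1 higher with Tamoxifen and the joint fit 2, and no filter left 2 higher in the difference. The cause was not tested, except that a stricter filter tests fewer genes and leaving out a library uses fewer samples.

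In the chemical experiment, deviations of same-numbered libraries had correlations of 0.0591, 0.0590 and -0.0675. Different-numbered pairs ran from -0.146 to 0.0945. In the genetic experiment the correlation was 0.0400, but with 2 libraries per group all pairs share that size by construction. These values cannot decide whether the numbers pair the libraries, and the reported fits do not pair them. With a replicate block, 0 polyamine genes were lower with DZNep (OAZ2 adjusted p = 0.0584) and 0 passed in the difference. Of the other pathway genes the block gave 4 higher and 1 lower with DZNep, 2 higher with Tamoxifen, and 0 lower in the difference. Over all genes it gave 1016 rises and 594 falls with DZNep, against 1850 and 1238 without it, and 429 rises and 449 falls with Tamoxifen, against 77 and 153. With quantile normalization, DZNep gave 1636 rises and 1637 falls over all genes, and with trimmed mean scaling 1652 and 1469. With no filter Tamoxifen gave 1 call over all genes. Depth in reads is unknown, which limits what can be said of AMD1 and other genes near 0.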
